A study of Mus musculus with 21 samples.

Results

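The cyclic AMP response element (CRE) palindrome TGACGTCA was carried by 19 of the 40330 probes (0.0471%) of a protein binding microarray, in which a tagged protein is bound to double-stranded DNA oligonucleotides on a slide and detected by fluorescence. The 19 probes were found by an exact search of the 35 variable bases of every printed probe, and no measured value was used to choose them. The study set 2 mutated DNA-binding domains against natural ones, to compare their preferences on DNA with modified cytosines. The proteins were CEBPB(V285A), CREB1(A297V), CEBPB and CREB1, each only the bZIP DNA-binding domain with a glutathione S-transferase (GST) tag at its N-terminus, produced by transcription and translation in vitro, so that no cell, partner protein or chromatin was present. The second strand of each oligonucleotide was made by primer extension with 5-hydroxymethylcytosine (5hmC), 5-methylcytosine (5mC) or plain cytosine (C), which left every 5hmC and 5mC probe modified on one strand only. CEBPB(V285A) had 2 arrays on each of 5hmC, 5mC and C. CREB1(A297V) had 4 arrays on 5hmC, 2 on 5mC and 2 on C. CEBPB was analysed on 5hmC only, with 2 arrays, and CREB1 had 2 arrays on 5hmC, 1 on 5mC and 2 on C.

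CREB1 and CEBPB are basic leucine zipper (bZIP) factors: they bind as dimers, and the basic region of each monomer lies in the major groove of one side of the site. CREB1 mediates transcriptional responses to cyclic AMP through the CRE, a palindrome with a CG dinucleotide at its centre. CEBPB acts in fat cell differentiation and inflammation and is known for the C/EBP palindrome TTGCGCAA. Both mutations lie in the basic region, at a position where CREB1 carries alanine and CEBPB valine, so that each mutant takes the residue of the other factor.

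The octamer is its own reverse complement, so each strand presents the same 8 bases and on 5hmC and 5mC arrays both cytosines of the octamer are modified on the synthesised strand and neither on the printed one. What differed among the 19 probes was the place of the octamer in the variable stretch and the bases around it. The probes that carry the results below are printed 5′ to 3′ as deposited, with the palindrome in capitals. A constant linker follows the 3′ end of each.

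The pair with the highest signal for CREB1 on C, followed by 2 probes with the site at the same distance from the linker as HK29607 but other flanks, and by the probe with the largest loss in CREB1(A297V) on C:
HK14808: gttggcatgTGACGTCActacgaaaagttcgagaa
HK29607: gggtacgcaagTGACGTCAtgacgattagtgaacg
HK16006: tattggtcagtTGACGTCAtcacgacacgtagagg
HK32509: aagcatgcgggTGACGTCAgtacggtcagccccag
HK06813: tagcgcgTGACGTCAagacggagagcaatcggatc
The 3 probes with the site farthest from the linker, at 26 bases:
HK00406: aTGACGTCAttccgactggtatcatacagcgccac
HK12722: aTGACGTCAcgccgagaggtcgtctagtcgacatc
HK29051: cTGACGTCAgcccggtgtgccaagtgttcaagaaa
The 3 probes with the site directly at the linker, whose right-hand flank is therefore the linker's own cc:
HK00405: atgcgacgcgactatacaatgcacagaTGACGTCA
HK12721: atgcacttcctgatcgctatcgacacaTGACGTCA
HK29050: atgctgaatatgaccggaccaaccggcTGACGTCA
The 3 probes with the lowest signal for CREB1 on C:
HK08546: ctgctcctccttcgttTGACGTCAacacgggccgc
HK06318: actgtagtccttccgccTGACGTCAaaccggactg
HK04096: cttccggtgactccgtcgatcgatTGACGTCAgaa

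The other 5 probes, HK03296, HK27272, HK21840, HK28948 and HK35343, had the site 17, 15, 12, 5 and 5 bases from the linker. Outside the octamer, a further part of a CRE (CGTCA or TGACG) stood in 2 of the 19 probes, HK29607 and HK35343, and in HK29607 also a part of a C/EBP site (CGCAA or TTGCG). Over the whole array 5.83% of probes held CGTCA or TGACG and 5.95% held CGCAA or TTGCG. No CRE probe held CGTAA or TTACG (from TTACGTAA, the palindrome of the PAR subfamily of bZIP factors), TGCAA or TTGCA outside the octamer.

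The value given for a probe is its median fluorescence intensity divided by the median over all probes of the same array, so that a signal of 1 is that of the typical probe. Intensities were not background-subtracted. The array median was between 76.0 and 2357.5 intensity units, and on 1 array, CREB1(A297V) 5hmC replicate 2, the median local background was above the median signal. The scanner's top value of 65528 was reached by 10 of the 399 CRE probe values. HK14808 was at the top on both CREB1 C and both CREB1 5hmC arrays and HK29607 on both CREB1 C arrays, so that their true signals there are not known and their losses are bounds. HK12722, HK16006 and HK32509 were at the top on CREB1 C replicate 2 only, and HK14808 on CEBPB(V285A) C replicate 1. Whether replicate arrays used separate preparations of a protein is not given in the labels, so p-values cover only the spread between these arrays. The deposited names carry a number whose meaning is not stated. One number is shared by 9 arrays, those of CREB1(A297V) 5mC and C, CREB1 5mC and C, and CREB1(A297V) 5hmC replicates 1 and 2. Another is shared by the 4 arrays of CEBPB and CREB1 on 5hmC, and CEBPB(V285A) had a different number on each form.

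CREB1 on C gave strong signal on every CRE probe, but the 19 copies of the same octamer differed widely. The lowest mean was 5.54 (HK08546), the median 27.7 and the highest 48.1 (HK14808 and HK29607, both at the top of the scale). The SD of the log2 signal between the 19 probes was 1.11, against a median SD of 0.19 between the 2 arrays of a probe. CRE probes took 10 and 8 of the 19 highest places of all probes on the 2 CREB1 C arrays, and 15 and 13 of the 100 highest. With background subtracted by the normexp method, the median over the CRE probes was 76.2, so that the ratio depends on how much of the array median is background.

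HK14808 gave 53.1 and 43.2 for CREB1 on C, and so did HK29607, all at the top of the scale. HK32509 gave 44.1 and 43.2, and HK00406 41.2 and 41.7. At the other end HK08546 gave 5.23 and 5.84, HK06318 5.21 and 6.41, and HK04096 6.28 and 6.12. The arrays of the bright and the dim probes did not overlap, and the gap between them was several times the difference between arrays. HK14808 had the highest mean of the 19 in all 10 groups, shared with HK29607 at the top of the scale in CREB1 C. No other CRE probe kept a single place, but they varied to different degrees. HK29607 ranged from rank 1 to rank 14 and HK32509 from rank 3 to rank 19, while HK04096 stayed between rank 17 and rank 19.

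The signal of CREB1 on C was higher in the 10 probes with the site at least 15 bases from the linker than in most of the others. The median of probe means was 40.0 for the 3 probes at 26 bases and 40.4 for the 7 at 15 to 20 bases. It was 5.81 for the 3 at 10 to 12 bases, 12.3 for the 3 at 3 to 5 bases and 11.9 for the 3 at 0 bases. Across the 19 probes, which share the octamer and the arrays, Spearman's rho of signal with distance was 0.72 for CREB1 on C, as a description without a test. It was 0.30 for CEBPB(V285A) on C and 0.66 for CREB1(A297V) on C, and on the modified DNA it lay between 0.19 for CEBPB 5hmC and 0.67 for CREB1 5mC. Single arrays varied around these values: rho was 0.30 and 0.46 on the CEBPB(V285A) C arrays, 0.56 and 0.26 on the CREB1(A297V) 5mC arrays and 0.15 and -0.041 on the CEBPB 5hmC arrays. The lowest on a CREB1(A297V) 5hmC array was -0.016.

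Distance was not the sole difference among these probes, since probes at one distance also differed. At the linker, HK00405 had 25.1 and 30.2 for CREB1 on C, HK12721 14.5 and 9.32, and HK29050 7.54 and 5.90. HK00405 was thus 3.34 and 5.12 times as bright as HK29050 on the 2 arrays, with the site in the same place. On the CREB1 5hmC arrays the same ratio was 5.63 and 6.94, and on CEBPB(V285A) C it was 3.40 and 3.70. At 26 bases, HK00406 exceeded HK29051 on both CREB1 C arrays, by 1.20 and 1.72 times. The pair at 5 bases, HK28948 and HK35343, was close together, with 12.4 and 12.2 for HK28948 and 15.0 and 18.8 for HK35343 on CREB1 C.

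The signals also went with the base just before the octamer. A purine (A or G) preceded the octamer on both strands in 6 probes, on one strand in 9 and on neither in 4, where the base before the octamer on the opposite strand is the complement of the base that follows it. This grouping was chosen after the values had been seen, so it is given without a test. For CREB1 on C the medians of probe means were 40.7, 27.7 and 6.01 for both strands, one and neither. The order was the same for CEBPB(V285A) on C, with 39.0, 29.2 and 6.21, and for CREB1(A297V) on C, with 8.35, 3.83 and 1.69. The ratio of both to neither was 6.77 and 6.78 on the 2 CREB1 C arrays and 5.69 and 5.72 on the 2 CEBPB(V285A) C arrays. On modified DNA the ratio of group medians was 1.88 for CEBPB(V285A) 5hmC, 4.59 for CEBPB(V285A) 5mC, 1.10 for CREB1(A297V) 5hmC, 2.09 for CREB1(A297V) 5mC, 2.83 for CEBPB 5hmC, 4.65 for CREB1 5hmC and 2.97 for CREB1 5mC. The order did not hold in CEBPB(V285A) 5hmC, with 2.12, 2.46 and 1.13 for both, one and neither, nor in CREB1(A297V) 5hmC, with 1.15, 1.01 and 1.04. The ratio of both to neither also differed between single arrays, from 1.13 to 3.13 in CREB1(A297V) 5mC and from 1.19 to 3.71 in CEBPB 5hmC.

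Distance and flank cannot be fully told apart in 19 probes. HK29051, with no purine before the octamer on either strand, had 34.4 and 24.3 for CREB1 on C at 26 bases, while the other 3 probes of that kind lay 3 to 11 bases from the linker and had means of 5.54 to 6.20. HK12722 and HK12721 share the bases next to the octamer, A before and C after. At 26 bases HK12722 had 36.7 and 43.2 for CREB1 on C, and at the linker HK12721 had 14.5 and 9.32. HK00405, with the same 2 bases at the linker, lay between them.

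On C, no CRE probe was called as different between CEBPB(V285A) and CREB1 by limma at an adjusted p under 0.05. The arrays of these groups differ in the number in their names, so number and protein cannot be told apart here. Over all probes 5.42% were called higher and 0.295% lower in CEBPB(V285A). At an unadjusted p under 0.05 there was 1 of 19 CRE probes, and 6746 of all 40330 probes. The median log2 difference of the 19 was 0.07, with a range of -0.83 to 0.82, against a median of 0.02 over all probes. The medians of probe means were 25.4 for CEBPB(V285A) and 27.7 for CREB1, and 49.7 and 76.2 in that order with normexp background correction. HK12721 had the largest positive difference of the 19, with 26.7 and 15.7 in CEBPB(V285A) C against 14.5 and 9.32 in CREB1 C, a log2 difference of 0.82 (SE 0.37, limma adjusted p 0.255). For HK14808 the values were 89.2 and 73.3 in CEBPB(V285A) C against 53.1 and 43.2 in CREB1 C, the CREB1 values being at the top of the scale, so that no fold is given. The 19 probes kept much the same order in both proteins (Spearman's rho 0.79 across the probes). CRE probes took 2 of the 19 highest places on each CEBPB(V285A) C array, against 10 and 8 on the CREB1 C arrays.

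CREB1(A297V), set against the same CREB1 C arrays, gave far less signal than CREB1 on the CRE probes on C. The median of probe means was 3.83 in CREB1(A297V) and 27.7 in CREB1. Of the 19 probes 14 were called lower and 0 higher, against 3.01% lower and 0.888% higher of all probes. Both CREB1(A297V) arrays lay below both CREB1 arrays in all 19, as in 21.1% of all probes. The median log2 difference was -2.27, against 0.02 over all probes. With only the 9 arrays that share a number in the fit 18 were called, the share of all probes called in that fit not being given here. HK06813 had 3.94 and 1.62 in CREB1(A297V) against 37.0 and 21.8 in CREB1, and fell by 3.49 on the log2 scale (SE 0.49, limma adjusted p 0.000115). HK32509 had 4.28 and 5.30 in CREB1(A297V) against 44.1 and 43.2 in CREB1 and fell by 3.20 (SE 0.49, adjusted p 0.000328), 1 of its 2 CREB1 values being at the top of the scale. In both probes each CREB1(A297V) array lay far below each CREB1 array.

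HK14808 was the brightest CRE probe in the mutant too, at 25.0 and 28.0 in CREB1(A297V) against 53.1 and 43.2 in CREB1, at least 1.81-fold lower (adjusted p 0.615). HK29607 had 17.8 and 11.9 in CREB1(A297V) against the same saturated values in CREB1, at least 3.29-fold lower (adjusted p 0.166). Neither passed the test, and their true differences are larger than measured by an unknown amount. The other 3 probes that missed the threshold, HK00406, HK16006 and HK29050, had log2 differences of -2.18, -2.03 and -1.84, within the range of the called probes. The 3 dimmest probes for CREB1 were dim in the mutant as well. HK08546 had 1.60 and 2.22 in CREB1(A297V) against 5.23 and 5.84 in CREB1, HK06318 1.55 and 1.38 in CREB1(A297V) against 5.21 and 6.41 in CREB1, and HK04096 1.37 and 1.22 in CREB1(A297V) against 6.28 and 6.12 in CREB1. The order of the 19 probes was alike in the mutant and in CREB1 (Spearman's rho 0.91 across the probes).

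The CREB1 signal of the CRE probes was lower on the single 5mC array than on C, where array and modification cannot be told apart. The median of probe means was 2.98 on 5mC and 27.7 on C, and 14 of 19 probes were called lower and 0 higher, against 1.51% lower and 1.3% higher of all probes. The median log2 difference was -2.28. CREB1 5mC is a single array, assumed in the fit to vary like the others, and it lay below both C arrays in all 19 probes, as in 33.9% of all probes. Without CREB1 C replicate 2 the count was 6, with normexp background correction 7, with quantile normalization 6, and with only the 9 arrays that share a number, 18. HK32509 had 2.80 on 5mC against 44.1 and 43.2 on C, and fell by 3.96 (SE 0.60, limma adjusted p 0.000509). HK06813 had 2.55 on 5mC against 37.0 and 21.8 on C and fell by 3.48 (SE 0.60, adjusted p 0.00142). HK14808, with 24.3 on 5mC against saturated values of 53.1 and 43.2 on C, was at least 1.97-fold lower (adjusted p 0.691). HK29607, also saturated on C, had 4.74 on 5mC, at least 10.1-fold lower (adjusted p 0.0183).

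On 5hmC the CREB1 signal fell on some CRE probes and did not pass the test on others. The median of probe means was 7.06 on 5hmC and 27.7 on C, the medians of the 2 5hmC arrays being 4.33 and 6.34. Of the 19 probes 11 were called lower and 0 higher, against 8.3% lower and 9.01% higher of all probes. The median log2 difference was -1.38. Without CREB1 5hmC replicate 1 the count was 6. The CREB1 arrays on 5hmC and on C differ in the number in their names and in spot layout. Number, layout and modification therefore cannot be told apart here. HK32509 had 3.59 and 6.34 on 5hmC against 44.1 and 43.2 on C, and fell by 3.19 (SE 0.49, limma adjusted p 0.00012). HK06813 had 3.47 and 3.19 on 5hmC against 37.0 and 21.8 on C and fell by 3.09 (SE 0.49, adjusted p 0.000151). HK29607, with 12.4 and 6.12 on 5hmC, was at least 5.50-fold lower than on C (adjusted p 0.0105).

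The other 8 probes did not pass the test, which does not show that they kept their signal. HK00405 had 23.1 and 23.0 on 5hmC against 25.1 and 30.2 on C, a log2 difference of -0.26 (SE 0.42, limma adjusted p 0.731). HK16006 had 24.4 and 36.7 on 5hmC against 37.6 and 43.2 on C, a log2 difference of -0.43 (SE 0.65, adjusted p 0.706). HK00406 had 28.1 and 21.9 on 5hmC against 41.2 and 41.7 on C, a log2 difference of -0.74 (SE 0.64, adjusted p 0.467). HK14808 was at the top of the scale on both forms, and no difference can be given. HK16006, HK29607 and HK32509 have the site at the same place, 16 bases from the linker. On the CREB1 5hmC arrays HK16006 was 5.78 and 6.79 times as bright as HK32509. On the CREB1 C arrays 4 of the 6 values of these 3 probes were at the top of the scale, so that most of their ratios there are not known. HK16006 and HK32509 were both below the top on CREB1 C replicate 1, at 37.6 and 44.1. There HK32509 was 1.17 times as bright as HK16006, the reverse of their order on 5hmC.

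These flanks were then described by the modified cytosines they could carry. On the assumption that the printed sequence is the template, each G in it faces a modified C on the synthesised strand. The flanks counted were the 2 bases on either side of the octamer. HK00406, HK12722 and HK29051 have only 1 base on the left. In HK00405, HK12721 and HK29050 the right flank is the linker's cc. The flanks held no G in 8 probes, 1 G in 7 and 2 or 3 in 4. The median log2 differences in that order were -2.15, -2.12 and -3.41 for CREB1 5mC against C, and -1.58, -0.73 and -2.78 for CREB1 5hmC against C. For CEBPB(V285A) they were -1.72, -1.92 and -3.22 on 5mC against C, and -3.27, -3.08 and -3.96 on 5hmC against C. For CREB1(A297V) they were -1.05, -1.39 and -1.66 on 5mC against C, and -1.57, -1.87 and -2.04 on 5hmC against C. The 4 probes with most G in the flanks had the lowest median in each of these comparisons. Among them, HK06813, HK29607 and HK32509 also held the most G of the 19 in the whole variable stretch, 12 each. G in the flanks and G in the whole probe therefore cannot be told apart here. Between no G and 1 G the order was not the same in all of them. The grouping was made with the values known and was not tested. All of these comparisons use the same 19 probes, and those within a protein share its C arrays, so they are not independent. HK14808, with 1 G, was at the top of the scale in CREB1 on both C and 5hmC, and HK29607 on C. In CREB1(A297V) on 5hmC 18 of 19 means were under 2, so that the falls there are limited by the floor.

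CEBPB(V285A) lost CRE signal on both modified forms. On 5mC the median of probe means was 5.25, against 25.4 on C, and the medians of its 2 arrays were lower than this, at 4.68 and 2.82. Of the 19 probes 16 were called lower and 0 higher, with 10.1% lower and 10.4% higher of all probes. The median log2 difference was -2.15. HK32509 had 2.14 and 2.38 on 5mC against 43.6 and 33.7 on C, and fell by 4.09 (SE 0.49, limma adjusted p 1.88e-06). HK29607 had 8.80 and 7.34 on 5mC against 80.0 and 72.8 on C and fell by 3.25 (SE 0.64, adjusted p 0.000582). The 3 probes that missed the threshold were HK14808, HK00406 and HK16006. HK16006 had 23.3 and 24.1 on 5mC against 46.0 and 30.8 on C, a log2 difference of -0.67 (SE 0.65, adjusted p 0.566). HK00406 had 13.1 and 14.4 on 5mC against 44.4 and 32.6 on C, a log2 difference of -1.47 (SE 0.64, adjusted p 0.12).

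On 5hmC all 19 CRE probes were called lower in CEBPB(V285A) and 0 higher, against 10.2% lower and 4.33% higher of all probes. The median of probe means was 1.82 on 5hmC and 25.4 on C. The median log2 difference was -3.71, with a range of -5.04 to -2.14, against 0.06 over all probes. On 5hmC 10 of the 19 means were under 2 and the lowest was 0.903. Signals so near that of the typical probe limit how large a fall could be. HK29607 had 3.09 and 1.74 on 5hmC against 80.0 and 72.8 on C, and fell by 5.04 (SE 0.64, limma adjusted p 6.52e-06). HK00405 had 1.85 and 1.79 on 5hmC against 47.1 and 31.6 on C and fell by 4.41 (SE 0.42, adjusted p 2.18e-07). HK14808 stayed the brightest, with 19.9 and 16.8 on 5hmC against 89.2 and 73.3 on C, and fell by 2.14 (SE 0.68, adjusted p 0.0369), which understates its loss, since 1 of its 2 values on C was at the top of the scale. Since each form of DNA had its own number in CEBPB(V285A), effects of the number and of the modification cannot be separated here.

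CREB1(A297V) was already low on C. On 5mC none of the 19 probes was called by limma against C, with 0.114% lower and 0.136% higher of all probes. At an unadjusted p under 0.05 there were 13 of 19, and 2578 of all 40330 probes. The median log2 difference was -1.33, with medians of probe means of 1.54 on 5mC and 3.83 on C. With only the 9 arrays that share a number in the fit, which hold all of both groups, 7 were called. With quantile normalization 5 were called, and with normexp 1. Without CREB1(A297V) 5mC replicate 1 or CEBPB 5hmC replicate 2 the count was 1, and without CEBPB 5hmC replicate 1 it was 2. On the CREB1(A297V) 5mC arrays 6 and 14 of the 19 probes were under 2 times their local background.

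On 5hmC the CREB1(A297V) signal of CRE probes was near that of the typical probe. The median of probe means was 1.06 on 5hmC and 3.83 on C, and 18 of 19 means were under 2. Of the 19 probes 10 were called lower than on C and 0 higher, against 0.645% lower and 0.0149% higher of all probes, and the median log2 difference was -1.76. The count was 1 without CREB1(A297V) C replicate 2, 5 with the replicate number as a block, 16 with quantile normalization and 14 with only the 9 arrays that share a number. HK14808 alone kept a mean above 2, with 3.68, 2.77, 2.50 and 2.15 on 5hmC against 25.0 and 28.0 on C, and fell by 3.28 (SE 0.59, limma adjusted p 0.00573). HK29607 had 0.876, 0.955, 0.967 and 1.21 on 5hmC against 17.8 and 11.9 on C and fell by 3.87 (SE 0.55, adjusted p 0.000476). On the 4 CREB1(A297V) 5hmC arrays 15, 18, 18 and 2 of the 19 probes were under 2 times their local background, so that the loss is limited by the floor of the measurement.

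Between proteins on 5mC, few CRE probes were called, and CREB1 had a single array. CEBPB(V285A) against CREB1 had 1 probe called higher and 0 lower, against 8.08% higher and 0.32% lower of all probes, a share for the CRE probes close to the background. That probe was HK28948, with 8.00 and 8.15 in CEBPB(V285A) against 2.53 in CREB1, a log2 difference of 1.68 (SE 0.48, limma adjusted p 0.032). It was not called with quantile normalization (-0.035) or normexp, nor without either of the CEBPB(V285A) 5mC arrays. CEBPB(V285A) and CREB1 on 5mC also differ in the number in their names, so number and protein cannot be told apart there. CREB1(A297V) against CREB1 had 1 probe called lower and 0 higher, against 0.64% lower and 0.181% higher of all probes. That was HK29051, with 1.94 and 1.13 in CREB1(A297V) against 9.76 in CREB1, and fell by 2.72 (SE 0.63, adjusted p 0.0423), not called with the replicate block or without either CREB1(A297V) 5mC array. The count was 0 also without any single array of CREB1, CREB1(A297V) or CEBPB(V285A), other than the CEBPB(V285A) 5mC arrays and the lone CREB1 5mC array, and 2 without either CEBPB 5hmC array. At an unadjusted p under 0.05 there were 9 of 19 in that comparison and 2562 of all 40330 probes, with a median log2 difference of -1.03 over the 19. With only the 9 arrays that share a number there were 5 calls among the 19 and 579 among all probes.

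On 5hmC the CRE probes were highest in CREB1. The medians of probe means were 1.82 for CEBPB(V285A), 1.06 for CREB1(A297V), 2.05 for CEBPB and 7.06 for CREB1. Against CREB1, 10 of 19 probes were called lower and 0 higher in CEBPB(V285A), with 5.89% lower and 5.43% higher of all probes and a median log2 difference of -1.70. In CREB1(A297V) 18 were called lower and 0 higher, with 12.1% lower and 7.75% higher of all probes and a median of -2.78. HK08546 was the exception, with 1.02, 1.10, 1.07 and 1.04 in CREB1(A297V) against 1.29 and 1.68 in CREB1, a log2 difference of -0.48 (SE 0.24, limma adjusted p 0.175).

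HK00405 had 1.85 and 1.79 in CEBPB(V285A) on 5hmC against 23.1 and 23.0 in CREB1, and fell by 3.66 (SE 0.42, limma adjusted p 7.06e-06). HK29051 had 1.31 and 1.19 in CEBPB(V285A) against 16.3 and 18.8 in CREB1 and fell by 3.81 (SE 0.51, adjusted p 3.55e-05). These 2 were named as the called probes with the largest falls. They do not show how other probes at either end of the variable stretch behaved, and a link with distance was not tested. In CREB1(A297V), HK00405 had 1.10, 1.33, 1.28 and 1.16 and fell by 4.25 (SE 0.37, adjusted p 5.45e-08), and HK16006 had 1.78, 1.28, 0.987 and 1.12 against 24.4 and 36.7 in CREB1 and fell by 4.57 (SE 0.56, adjusted p 4.62e-06). HK14808 was at least 16.3-fold lower in CREB1(A297V) than in CREB1 (adjusted p 3.56e-05), where it was saturated, and at least 2.43-fold lower in CEBPB(V285A) (adjusted p 0.262). These comparisons share the CREB1 5hmC arrays. No CEBPB(V285A) or CREB1(A297V) array on 5hmC carries the number of the CREB1 5hmC arrays, so number and protein cannot be told apart here. CEBPB(V285A) also differed from CREB1 in spot layout. Of all probes, 1.14% to 1.85% had a signal of 2 or more on the CREB1(A297V) 5hmC arrays, against 7.60% and 8.55% on the CREB1 5hmC arrays.

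CEBPB on 5hmC had 13 of 19 CRE probes called lower than in CREB1 and 0 higher, against 8.17% lower and 8.08% higher of all probes, with a median log2 difference of -1.75. With only the 4 arrays of these groups, which share a number but not a spot layout, 9 were called. Without CEBPB 5hmC replicate 2 the count was 7. HK29051 had 2.15 and 1.10 in CEBPB against 16.3 and 18.8 in CREB1, and fell by 3.50 (SE 0.51, limma adjusted p 3.59e-05). HK21840 had 0.818 and 0.892 in CEBPB against 8.71 and 8.46 in CREB1 and fell by 3.33 (SE 0.37, adjusted p 1.61e-06).

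The 2 CEBPB arrays disagreed on the CRE probes. Their medians were 3.28 on replicate 1 and 0.960 on replicate 2, and HK14808 had 35.2 and 4.97. HK16006 had 10.7 and 1.17, and HK29050 8.33 and 0.970. The same 2 arrays gave like medians over the 17 probes with the C/EBP palindrome, between 6.11 and 6.21, and over the 18 with the PAR palindrome TTACGTAA, between 4.30 and 5.24. Below 2 times the local background were 3 CRE probes on replicate 1 and 12 on replicate 2. The cause of the disagreement was not tested. CEBPB(V285A) against its natural form on 5hmC had 1 CRE probe called higher and 1 lower, against 4% higher and 5.91% lower of all probes, a share close to the background. HK21840 had 1.55 and 3.02 in CEBPB(V285A) against 0.818 and 0.892 in CEBPB, a log2 difference of 1.34 (SE 0.37, limma adjusted p 0.0233), and HK06318 had 0.881 and 1.24 in CEBPB(V285A) against 4.44 and 2.68 in CEBPB, and fell by 1.72 (SE 0.28, adjusted p 0.000218). Without either CEBPB array 4 were called, and with normexp or quantile normalization 1. The CEBPB(V285A) and CEBPB arrays on 5hmC differ in the number in their names, so number and protein cannot be told apart.

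Whether a modification acted differently in a mutant and in CREB1 was tested as the difference of their changes. For 5mC, none of the 19 probes was called by limma in CEBPB(V285A) against CREB1, with 2.56% of all probes higher and 0.625% lower. At an unadjusted p under 0.05 there was also none of the 19, against 5502 of all probes, and the median difference of changes was 0.13. For 5hmC, 8 of 19 were called lower, that is with the larger fall in CEBPB(V285A), and 0 higher, against 6.5% lower and 1.78% higher of all probes, with a median of -1.88. The medians over the 19 for 5mC and 5hmC include HK14808, HK29607, HK12722, HK16006 and HK32509. These were at the top of the scale on 1 or both CREB1 C arrays, so that their changes in CREB1 are not fully measured. HK00405 changed by -4.41 in CEBPB(V285A) and by -0.26 in CREB1, a difference of -4.15 (SE 0.60, limma adjusted p 0.000173). HK00406 changed by -3.98 in CEBPB(V285A) and by -0.74 in CREB1, a difference of -3.24 (SE 0.90, adjusted p 0.0283). The other 6 were HK12721, HK29051, HK21840, HK06318, HK35343 and HK04096, with differences of -2.99 to -1.54. Quantile normalization left none of the 8. The groups of these proteins differ in the number in their names on C, 5mC and 5hmC, so number and protein cannot be told apart. On 5hmC they also differ in spot layout, so layout and protein cannot be told apart there either.

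For CREB1(A297V) against CREB1, the difference of the 5mC changes was called higher in 1 probe and lower in 0, against 0.255% higher and 0.136% lower of all probes. That was HK04096, which changed by -0.34 in CREB1(A297V) and by -2.21 in CREB1, a difference of 1.87 (SE 0.41, limma adjusted p 0.0453). Its CREB1(A297V) signal on C was already 1.37 and 1.22, and it was not called with normexp or quantile normalization, nor without any single array of CREB1 C, CREB1(A297V) C or CREB1(A297V) 5mC. At an unadjusted p under 0.05 there were 8 of 19 probes and 2587 of all 40330. With only the 9 arrays that share a number there were 2 calls among the 19 and 379 among all probes. For 5hmC, 1 probe was called lower and 0 higher, against 2.97% lower and 1.35% higher of all probes. That was HK14808, with a difference of -3.18 (SE 0.90, adjusted p 0.047), but since it was at the top of the scale in CREB1 on both 5hmC and C, its change in CREB1 was not measured and the value cannot be read as a difference between the proteins. The count was 0 without any single array of CREB1 C, CREB1 5hmC, CREB1(A297V) C or CREB1(A297V) 5hmC.

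Against related sites, the CRE probes had the highest class median in CREB1 on C, and other classes had it in the mutants. In CREB1 on C the median of probe means was 27.7 for the 19 CRE probes, 9.48 for 33 probes with a CRE and PAR hybrid site (TGACGTAA or TTACGTCA), 5.36 for the 18 PAR probes, 3.54 for 35 with a CRE and C/EBP hybrid (TGACGCAA or TTGCGTCA), 3.37 for 520 with TGACGT or ACGTCA alone and 1.28 for the 17 C/EBP probes. In CEBPB(V285A) on C the CRE median of 25.4 stood below 35.4 for PAR and 30.2 for the CRE and PAR hybrid, and above 10.0 for C/EBP. In CREB1(A297V) on C it was 3.83 for CRE, below 7.00 for PAR and 4.74 for the hybrid. In CEBPB(V285A) on 5hmC it was 1.82 for CRE, 11.2 for PAR and 8.42 for C/EBP, and in CREB1 on 5hmC 7.06 for CRE, 3.69 for PAR and 2.50 for C/EBP. The classes differ in size and in flanks, and these medians are a description without a test.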

How the data were processed

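Each array file held, per the file headers, the median fluorescence intensity and the median local background intensity of every spot, as the authors deposited them, without background subtraction. How the spots were scanned or filtered is not given in the sources used here, and the files held no flags. A deposited matrix of scores for sequences of 8 bases was not used. The arrays were joined by probe, since 4 of the 21 had another spot layout. These were both CREB1 5hmC arrays and CREB1(A297V) 5hmC replicates 1 and 2. In CREB1, effects of the layout and of 5hmC therefore cannot be told apart. The same holds for layout and protein where CREB1 is compared with CEBPB or CEBPB(V285A) on 5hmC. Each intensity was divided by its array's median, and log2 ratios were fitted with limma 3.58.1 in R 4.3.3. All 21 arrays were in a single fit with 1 coefficient for each of 10 groups, a mean-variance trend and 11 degrees of freedom left for the spread. Tests were two-sided, with Benjamini-Hochberg adjustment over all 40330 probes, and a probe was called at an adjusted p under 0.05. The fit was also run on simulated data with independent noise. These had no saturation, floor or effect of the number in the name, so the run does not bear on those limits. Fold bounds compare the mean over a group's arrays at the top of the scale with the mean of the other group, on the log2 scale.

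Probes were named if their site lay nearest to or farthest from the linker, if they were among the 3 highest or 3 lowest for CREB1 on C, or, in a comparison, if they were among up to 2 called probes with the largest rise or fall whose groups did not overlap. Others were added after their values were seen. The probes, classes and comparisons were chosen with earlier results of these data known. The alternatives were normexp background correction, quantile normalization, dim probes left out, the replicate number as a block, the number in the deposited name as a random block or as a subset, and each array left out in turn. Most alternative counts are given without the share of all probes called in the same fit. Such a count does not show whether the change was in the CRE probes or in all probes.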

Additional observations from a re-analysis of the deposited data

Results flagged for a closer look

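HK21840 on CREB1(A297V) 5hmC replicate 2 had a signal of 1.43, against 1.16 to 1.19 on the other 3 arrays, a gap large for the range of the 4. Of 20 such sets of 4 arrays examined this was the only one, and chance gives about 1 in 20.

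The change with 5hmC was called lower in CEBPB(V285A) than in CREB1 in 8 CRE probes, against 6.5% lower and 1.78% higher of all probes. It differed by -4.15 on the log2 scale in HK00405 and by -3.24 in HK00406. Quantile normalization left none of the 8, and the 5hmC groups of these proteins differ in number and in spot layout. The change with 5mC was called higher in CREB1(A297V) than in CREB1 in 1 probe, HK04096, by 1.87, against 0.255% higher and 0.136% lower of all probes. HK04096 was not called with normexp or quantile normalization, nor without any single array of CREB1 C, CREB1(A297V) C or CREB1(A297V) 5mC. For the change with 5hmC in CREB1(A297V) against CREB1 the fit called 1 probe lower, against 2.97% lower and 1.35% higher of all probes. That was HK14808, at -3.18. Its 4 CREB1 values were all at the top of the scale, so its change in CREB1 was not measured and no difference can be read from this value.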

How the results depend on the processing

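Leaving out dim probes, which kept all 19 CRE probes, or using the number in the name as a random block (consensus correlation -0.05) left all 18 counts of called CRE probes within 1.5 times. Normexp moved 7 counts: to 0 from 1 for CEBPB(V285A) against CREB1 on 5mC and for the 5mC interaction of CREB1(A297V), to 4 from 1 for CREB1(A297V) against CREB1 on 5mC, to 1 from 2 for CEBPB(V285A) against CEBPB on 5hmC, to 7 from 14 for CREB1 5mC against C, to 1 from 0 for CREB1(A297V) 5mC against C and to 3 from 1 for its 5hmC interaction. Quantile normalization moved 9 in that order of comparisons: to 0 and 0, 2, 1, 6, 5 and 0, and besides these to 16 from 10 for CREB1(A297V) 5hmC against C and to 0 from 8 for the 5hmC interaction of CEBPB(V285A). It turned HK28948 in CEBPB(V285A) against CREB1 on 5mC to -0.035, against 1.68. The cause was not tested. With only the 9 arrays that share a number the counts were 5 for CREB1(A297V) against CREB1 on 5mC, 7 for CREB1(A297V) 5mC against C and 2 for its 5mC interaction, and with only the 4 of CEBPB and CREB1 on 5hmC the count for CEBPB against CREB1 stayed within 1.5 times, at 9. Of the 30 medians, correlations with distance and flank ratios that describe the groups, normexp moved 20 by more than the spread between arrays (CREB1 5mC has no such spread), and leaving out an array did so in 17 of 60 cases. The median over the CRE probes became 2.81, 7.87 and 49.7 for CEBPB(V285A) on 5hmC, 5mC and C, 1.16, 3.03 and 10.6 for CREB1(A297V), 2.95 for CEBPB on 5hmC, and 15.8, 7.95 and 76.2 for CREB1.

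Arrays with the same replicate number were not paired. Of 72 same-numbered pairs of different groups, 43 had deviations from their group means correlated over 0.1 (lowest -0.142, median 0.176, highest 0.634). Of 20 arrays, 16 correlated best with an array of their own number. In groups of 2 arrays the deviations are mirror images. Each correlation between such groups is therefore repeated, and these counts hold fewer separate values than they seem to. They are a hint from the data only. With a replicate block the counts were 0 instead of 1 for CREB1(A297V) against CREB1 on 5mC, 5 instead of 10 for CREB1(A297V) 5hmC against C and 0 instead of 1 for its 5hmC interaction, and the other 15 stayed within 1.5 times.

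Leaving out each array in turn, the counts ranged from 12 to 17 for CREB1(A297V) against CREB1 on C, 0 to 1 for CEBPB(V285A) against CREB1 on 5mC, 0 to 2 for CREB1(A297V) against CREB1 on 5mC, 7 to 16 for CEBPB against CREB1, 2 to 4 for CEBPB(V285A) against CEBPB, 6 to 16 for CREB1 5mC against C, 6 to 12 for CREB1 5hmC against C, 0 to 2 for CREB1(A297V) 5mC against C, 1 to 13 for CREB1(A297V) 5hmC against C, 0 to 1 for the 5mC and 0 to 2 for the 5hmC interaction of CREB1(A297V). Without CEBPB(V285A) 5mC replicate 1 the 1 probe called between CEBPB(V285A) and CREB1 on 5mC was lower, and without either CEBPB(V285A) C array the 1 probe called for the 5hmC interaction of CREB1(A297V) was higher. The plan to keep or drop flagged spots was not run, as the files hold no flags.

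Precision is limited by the number of arrays, by signals at the top of the scale in CREB1 on C and 5hmC, and by signals near local background in CREB1(A297V) on 5mC and 5hmC and in CEBPB on 5hmC. In CEBPB(V285A) on 5hmC it is limited by signals near that of the typical probe.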
